A study of Mus musculus with 16 samples.

Results

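The 44 collagen genes of the table are those whose symbol has the form Col, a type number, a and a chain number, among 31274 genes measured by RNA-seq in mouse seminal vesicles (SV) at week 5. The 16 samples fall into 4 groups of 4, and all mice were male and of the C57BL/6 strain. WT-veh mice were wild type and received corn oil by injection on days 1 to 5 of life, and WT-DES mice received the synthetic oestrogen diethylstilbestrol (DES) in corn oil, at 2 µg per pup per day, on the same days. αERKO-veh and αERKO-DES mice were treated alike but lacked a functional *Esr1*, the gene of oestrogen receptor α (ERα), in the whole body, and were bred from heterozygous parents, whereas the WT mice came from bought pregnant females. RNA of WT-DES was extracted from 3 pools of animals and that of each other group from 4 single animals, while the labels list 4 RNA-seq samples in every group, so how the WT-DES samples relate to animals is not given in the sources used here.

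Collagens are the main structural proteins of the extracellular matrix. Each chain holds stretches built of glycine-X-Y triplets, and such chains wind into triple helices. Fibrillar collagens (types I, III and V among them) form the fibrils of connective tissue, FACIT collagens sit on the surface of these fibrils, type IV forms the network of basement membranes under epithelium and around muscle cells, and type VI forms beaded filaments between cells and fibrils. In the SV they belong to the stroma and muscle coat around the secretory epithelium, and fibroblasts and smooth muscle cells are known sources of them.

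The glycine repeat shows how the classes differ. The longest coding transcript of each gene in GENCODE M21 (mm10, GRCm38) was read in frame, and the longest uninterrupted run of glycine-X-Y triplets was counted. In the 11 fibrillar genes this run had 648 to 1032 residues, with a median of 1014. In the 6 type IV genes it had 117 to 198 residues, and in the 9 FACIT genes 96 to 339. The first 6 triplets of the longest run are shown for 8 genes whose values carry the results below, with the first codon of each triplet, which encodes glycine, in capitals:
Col1a1: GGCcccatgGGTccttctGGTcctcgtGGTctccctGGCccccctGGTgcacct
Col3a1: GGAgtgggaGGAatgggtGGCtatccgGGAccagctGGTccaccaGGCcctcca
Col5a2: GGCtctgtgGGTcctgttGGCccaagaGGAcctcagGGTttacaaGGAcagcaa
Col14a1: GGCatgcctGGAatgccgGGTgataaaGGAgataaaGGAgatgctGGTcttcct
Col6a4: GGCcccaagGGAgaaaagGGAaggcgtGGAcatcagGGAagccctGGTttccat
Col4a5: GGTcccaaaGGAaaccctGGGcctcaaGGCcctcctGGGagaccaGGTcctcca
Col4a6: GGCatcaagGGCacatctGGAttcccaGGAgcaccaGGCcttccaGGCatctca
Col26a1: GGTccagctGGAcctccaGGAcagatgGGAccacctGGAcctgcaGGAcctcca
The repeat made up 73.2% of the coding bases of *Col1a1* but 13.8% of those of *Col14a1* and 14.3% of those of *Col6a4* (runs of at least 5 triplets). Both of the latter are long chains in which most of the sequence is not collagenous.

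The unit is FPKM, in which fragments are scaled to transcript length and to the mapped total, so levels can be compared between genes per length. Without counts in the table, sequencing depth is unknown. *Esr1* served as a check of the labels and ranged from 2.81 to 4.55 FPKM in WT-veh samples, 8.74 to 19.6 after DES, 1.30 to 1.75 for αERKO-veh and 0.91 to 1.64 for αERKO-DES, so no αERKO value reached a WT value. Libraries stood apart within groups. In WT-DES, sample 1 had a mean smooth muscle marker level of 8.25 on the log2(FPKM + 1) scale against 6.05 to 6.70 in the other 3 (8 genes such as *Acta2* and *Myh11*). In αERKO-veh, samples 2 to 4 had skeletal muscle markers at 5.22 to 6.00 against 2.99 in sample 1, and WT-veh sample 4 reached 5.17 against 1.72 to 2.66 in the other 3.

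Collagen expression as a whole was highest in WT-DES. Summed over the 44 genes, FPKM was 1333, 1313, 1100 and 1288 in WT-veh samples 1 to 4 and 2371, 1992, 2308 and 2287 in WT-DES. The αERKO-veh samples had sums of 943, 1527, 1023 and 1368, and the αERKO-DES samples 1086, 1007, 947 and 1133. Every WT-DES sum was above every other sum, and the αERKO-veh sums spread more than those of the other vehicle group. *Col1a1*, *Col1a2* and *Col3a1*, the chains of types I and III, made up 39.3% to 42.8% of the WT-veh sums, 45.1% to 47.9% of those of WT-DES, 35.9% to 41.6% for αERKO-veh and 33.2% to 35.7% for αERKO-DES. The 6 type IV genes went the other way as a share between the WT groups, 14.2% to 16.2% (WT-veh) and 11.7% to 12.3% (WT-DES), and were 18.7% to 22.3% (αERKO-veh) and 19.7% to 23.9% (αERKO-DES). Their summed FPKM was nonetheless higher in WT-DES, at 243 to 291 against 163 to 213 in WT-veh.

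**Figure D1:**
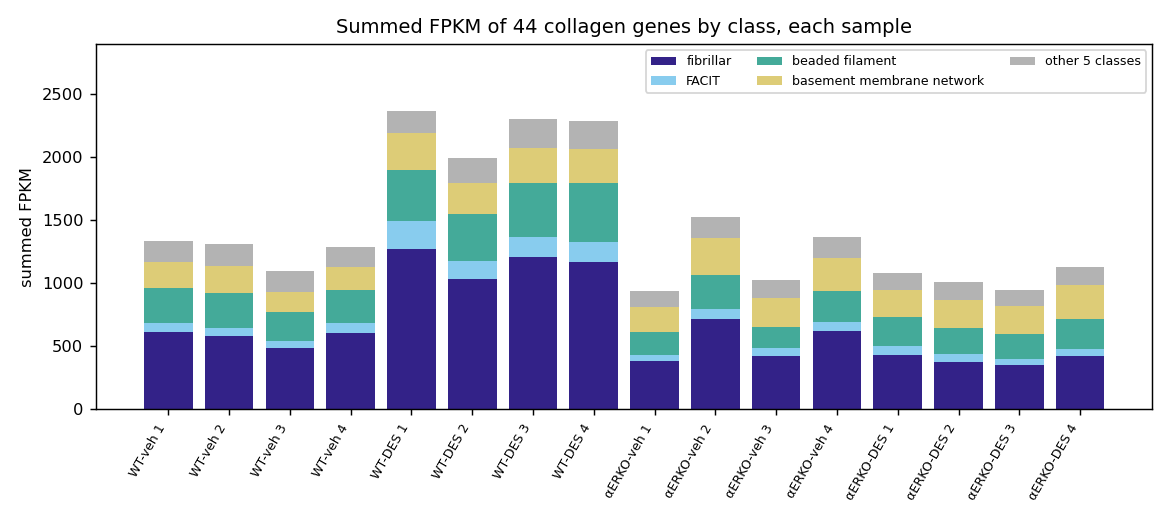
Summed FPKM of the 44 collagen genes in each of the 16 samples, stacked by class. The fibrillar, FACIT, type VI and type IV classes are in colour and the other 5 classes in grey. The 4 WT-DES bars reach 1992 to 2371, above the 12 others, which end between 943 and 1527, and the fibrillar genes make up the largest block in every bar.

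Of the 44 genes, 38 exceeded 1 FPKM as the mean of 1 or more groups and were tested. *Col2a1*, *Col9a1*, *Col10a1*, *Col11a2*, *Col19a1* and *Col22a1*, several of them known from cartilage, stayed below that limit and reached at most 1.22 FPKM in any sample. A further 6 tested genes, *Col6a4*, *Col6a6*, *Col9a2*, *Col11a1*, *Col24a1* and *Col25a1*, were above 1 in WT-DES alone, so they entered the test only through the group in which they were high.

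After neonatal DES in WT mice, the chains of types I, III and V were called higher (*Col1a1*, *Col1a2*, *Col3a1*, *Col5a1*, *Col5a2* and *Col5a3*), as were *Col12a1* and *Col14a1* of the FACIT class and *Col6a1* of type VI. A gene was called where limma gave an adjusted p of at most 0.05 (Benjamini-Hochberg over 15988 genes), the ratio of mean FPKM was at least 1.5 and 1 of the 2 means was above 1. In WT-DES relative to WT-veh, 21 of the 38 genes were called higher and 0 lower, where 28.9% of all tested genes were called higher and 23.9% lower. The 21 include the 6 that passed the limit through WT-DES alone. Of the 25 genes with a mean above 5 FPKM over all 16 samples, 13 were called higher, where 18.1% of all genes above that mean were, and *Col6a4* and *Col8a2*, 2 of the 13, reached that mean only through WT-DES. The median log2 change of the 38 genes was 0.81 against −0.01 for all tested genes. In 26 of the 38 genes every WT-DES sample was above every WT-veh sample, which held for 32.7% of all tested genes. Without WT-DES sample 1, 20 of the 21 genes remained called, and *Col25a1* fell under the limit of 1 FPKM.

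In bulk tissue, more cells of a type and more RNA per cell cannot be told apart, and markers of several cell types moved in the same comparison. Of the 7 fibroblast markers 5 were called higher and 0 lower (median log2 change 1.28), and their mean log2 level was 4.66 to 4.89 in WT-veh against 6.07 to 6.22 in WT-DES, led by *Fbln1*, a matrix protein of connective tissue, and *Pdgfra*, a growth factor receptor of fibroblasts. All 6 endothelial markers and 7 of 8 leukocyte markers were called higher, with a mean log2 level of the latter list from 3.42 to 3.803 in WT-veh and from 4.71 to 5.44 in WT-DES. The eighth gene of that list, *Cd52*, was called lower, from 2919 to 452 FPKM (log2 change −2.73). In WT-veh it stood far above *Ptprc* of the same list (2.565 FPKM), and which cells it came from was not tested. Of the 8 epithelial markers 5 were called lower, of which *Krt18* and *Krt19* remained so after a correction for transcript length, and 1 was called higher. Adipose markers were higher for 5 of 8 and skeletal muscle markers lower for 2 of 11. Of the 8 smooth muscle markers 4 were called lower and 0 higher, although sample 1 of WT-DES, at the mean level of 8.25 given above, exceeded the WT-veh samples (7.56 to 7.91) and the other 3 lay below them. All 8 genes of SV secretion were called lower, from 12.5 to 12.7 in WT-veh to 7.64 to 9.59 in WT-DES. None of the fibroblast, endothelial, leukocyte, smooth muscle, epithelial, adipose and secretion genes was at 0 in a sample of these groups. The part of these shifts in the collagen values was not tested.

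Among the fibrillar genes, 8 of 9 tested were called higher, *Col11a1* and *Col24a1* among them, which entered the test through WT-DES alone. After the correction for transcript length 5 of the 9 were called higher, without *Col3a1*, *Col5a3* and *Col24a1*. The class counts of this comparison stand beside 28.9% of all tested genes called higher and 23.9% lower, or 27.3% and 20.5% after that correction. *Col1a1*, which encodes the α1 chain of type I collagen (mm10 chr11:94936224-94953042, plus strand), was 144, 143, 103 and 150 FPKM in WT-veh and 347, 252, 292 and 283 in WT-DES. The groups did not overlap, and the log2 change was 1.12 (adjusted p = 1.01e-04 in limma, standard error 0.19). Its partner *Col1a2* went from 152 ± 16.2 (SD, n = 4) to 343 ± 25.2, a log2 change of 1.17 (standard error 0.16). *Col3a1*, whose homotrimer forms the type III collagen of soft tissues (chr1:45311538-45349706, plus strand), was 248, 224, 202 and 238 FPKM in WT-veh and 429, 352, 423 and 398 in WT-DES, with a log2 change of 0.81 (adjusted p = 4.02e-04 in limma, standard error 0.16).

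Type V chains, which take part in starting type I fibrils, were called too. *Col5a2* (chr1:45374321-45503282, minus strand) was 20.96, 20.1, 17.9 and 19.1 FPKM in WT-veh and 60.3, 57.3, 63.0 and 57.7 in WT-DES, with no overlap and a log2 change of 1.56 (adjusted p = 2.81e-07 in limma, standard error 0.15). *Col5a1* went from 18.2 ± 2.34 to 42.9 ± 4.32 and *Col5a3* from 11.7 ± 0.823 to 19.7 ± 4.03 (SD, n = 4). The minor fibrillar genes *Col11a1* and *Col24a1* rose from 0.53 to 2.12 and from 0.22 to 1.25 FPKM. *Col27a1*, at 6.44 ± 0.645 and 8.51 ± 2.04, was the one fibrillar gene tested and not called.

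Of the 6 FACIT genes tested, 4 were called higher, with *Col9a2* tested through WT-DES alone. *Col14a1*, whose product binds fibrils of type I collagen (chr15:55307750-55520803, plus strand), was 10.4, 8.42, 7.78 and 10.7 FPKM in WT-veh and 93.7, 50.0, 52.3 and 60.5 in WT-DES. All 4 WT-DES samples lay far above WT-veh, and the log2 change was 2.62 (adjusted p = 6.36e-07 in limma, standard error 0.27), or 2.43 without WT-DES sample 1. *Col12a1*, the related type XII chain, was 8.20, 8.75, 6.15 and 8.04 in WT-veh and 52.6, 10.1, 16.1 and 18.8 in WT-DES, and its log2 change of 1.28 went to 0.83 without sample 1, still called. *Col9a2* and *Col9a3* were called higher at low levels, up to 2.82 and 6.10 FPKM, and *Col16a1* (47.8 ± 5.75 to 69.2 ± 5.66) and *Col20a1* (3.95 ± 0.689 to 4.64 ± 0.974) were not called.

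On the log2(FPKM + 1) scale the largest change of any collagen gene was that of *Col6a4*, an additional chain of type VI collagen (chr9:105989454-106096783, minus strand). It was 0.83, 0.67, 0.49 and 0.69 FPKM in WT-veh and 9.57, 22.3, 13.6 and 28.4 in WT-DES, a log2 change of 3.44 (adjusted p = 7.74e-09 in limma, standard error 0.23). WT-DES samples 2 and 4 were the highest and sample 1 the lowest, and both αERKO groups lay at 0.78 to 1.12. The main chains of type VI moved less. *Col6a1* was 116, 118, 99.6 and 105 FPKM in WT-veh and 195, 179, 208 and 208 in WT-DES, a log2 change of 0.84 (adjusted p = 1.95e-05 in limma, standard error 0.12). *Col6a2* (121 ± 9.29 to 163 ± 14.3) and *Col6a3* (26.7 ± 4.26 to 39.1 ± 6.71) had adjusted p of 0.00704 and 0.028 in limma but ratios of means of 1.35 and 1.46, under the fold required. *Col6a6* was called, from 0.19 to 1.31 FPKM, and *Col6a5* was not.

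Of the 6 type IV genes, *Col4a5* alone was called. It rose from 25.3, 26.4, 21.1 and 19.6 FPKM in WT-veh to 29.3, 40.1, 59.4 and 38.9 in WT-DES (log2 change 0.80, standard error 0.18, limma adjusted p = 8.67e-04). The abundant chains *Col4a1* (84.6 ± 9.88 to 121 ± 17.3) and *Col4a2* (53.2 ± 7.35 to 78.0 ± 14.4) had adjusted p of 0.00305 and 0.00424 in limma with ratios of 1.43 and 1.46, just under 1.5. *Col4a6*, *Col4a3* and *Col4a4* had log2 changes of −0.20, −0.24 and 0.13, none of them called. After the length correction *Col4a5* was not called (log2 change 0.46) and *Col4a3* was called lower (−0.69).

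Among the other classes, both tested type VIII genes, known from basement membranes and vessel walls, were called. *Col8a1* was 1.16, 0.97, 0.77 and 1.20 FPKM in WT-veh and 21.8, 2.07, 2.76 and 5.22 in WT-DES, and *Col8a2* was 3.77, 3.52, 3.19 and 3.89 against 20.5, 6.68, 8.29 and 7.27. In both genes sample 1 was far above the other 3 WT-DES samples, and their log2 changes went from 1.66 to 1.04 and from 1.21 to 0.87 without it, both still called. *Col17a1*, a transmembrane collagen of the junction between epithelium and basement membrane, went from 5.89, 6.33, 4.60 and 5.47 to 14.5, 25.9, 12.3 and 18.3 (log2 change 1.47, standard error 0.19, limma adjusted p = 5.81e-06). *Col25a1* was 8.44 FPKM in WT-DES sample 1 and 0.34 to 0.59 in the other 3, so its call rests on that sample.

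Other genes were not called. The multiplexins *Col15a1* (48.1 ± 4.26 to 61.0 ± 9.19) and *Col18a1* (44.7 ± 3.14 to 58.6 ± 6.41), basement membrane collagens with short repeat runs, had ratios of 1.27 and 1.31. *Col7a1*, the chain of anchoring fibrils, went from 9.68 ± 0.592 to 10.2 ± 2.66 (SD, n = 4). *Col23a1*, a transmembrane collagen, was 15.8 to 17.9 in WT-veh against 3.78, 13.8, 20.9 and 12.2 in WT-DES, a log2 change of −0.60 with the groups overlapping, and *Col13a1* was 2.88 to 4.80 and 1.31 to 5.51.

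**Figure D2:**
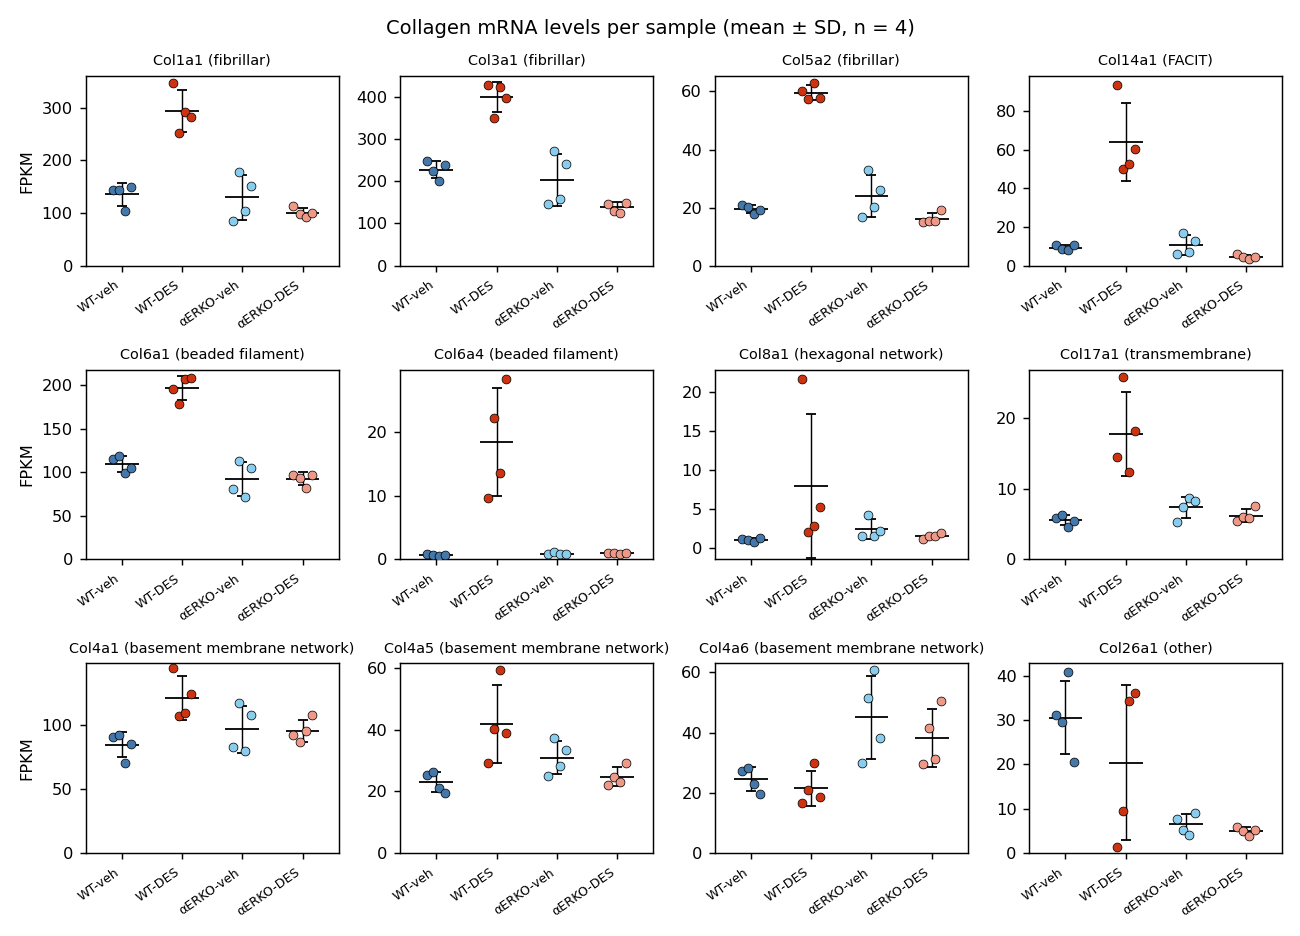
FPKM of 12 collagen genes in each of the 16 samples, on linear axes, with the mean and SD of the 4 samples of a group. *Col5a2* and *Col14a1* have WT-DES samples far above the 3 other groups, *Col8a1* rests mainly on 1 WT-DES sample at 21.8 FPKM, *Col4a6* is highest in the αERKO groups and *Col26a1* spreads from 1.45 to 36.2 FPKM in WT-DES.

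Transcript length moved with these changes across the table. The longest transcript of the 38 tested collagen genes had a median length of 6284.5 nt against 3244 nt for the 15048 tested genes with a length, and 31 of the 38 lay in the longest of 4 length bins of equal gene number (4678 nt and more). In WT-DES relative to WT-veh, all genes of that bin had a median log2 change of 0.33 and 40.4% were called higher, and of its 31 collagen genes 16 were, with a median of 0.69. After each sample was corrected for its trend on length, 15 collagen genes were called higher (27.3% of all genes) and 2 lower (20.5% of all genes), and the 15 were all among the 21. *Col3a1*, *Col4a5*, *Col5a3*, *Col6a6*, *Col24a1* and *Col25a1* lost the call, *Col3a1* with a corrected log2 change of 0.55 and *Col4a5* with 0.46. *Col4a3* and *Col23a1* were the 2 called lower. *Col6a4* (3.04), *Col14a1* (2.29), *Col5a2* (1.22), *Col1a2* (0.93) and *Col1a1* (0.83) stayed called.

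Few collagen genes passed the test for loss of ERα without DES. In αERKO-veh relative to WT-veh, 1 of the 38 genes was called higher, where 4.50% of all tested genes were, and 1 lower, where 2.63% were. The count of 2 went to 0 without WT-veh sample 3 or αERKO-veh sample 2, to 1 without WT-veh sample 1 or 4 or αERKO-veh sample 3, and to 4 without WT-DES sample 1. Skeletal muscle markers were called higher for 5 of 11 genes in this comparison and endothelial ones for 2 of 6 (*Kdr* and *Tek*). *Thy1* of the 7 fibroblast and *Lyz2* of the 8 leukocyte markers were called lower. After the length correction 3 skeletal muscle markers were called higher, *Thy1* stayed lower, and *Kdr*, *Tek* and *Lyz2* were not called. What part these markers have in the collagen values was not tested. *Col26a1*, which encodes an extracellular matrix protein with a short collagen repeat (chr5:136741759-136883209, minus strand), was 31.2, 29.6, 40.8 and 20.6 FPKM in WT-veh and 7.63, 5.13, 4.13 and 9.07 in αERKO-veh, with no overlap. Its log2 change was −2.09 (standard error 0.62, limma adjusted p = 0.0253), and the call was lost when WT-veh sample 1 or 3 or αERKO-veh sample 2 or 3 was left out (adjusted p 0.051 to 0.074 in limma, log2 change −2.06 to −1.92). In WT-DES it was 1.45, 9.56, 34.2 and 36.2 and in αERKO-DES 3.91 to 5.99, so 2 WT-DES samples lay below all WT-veh samples and 2 within the WT-veh range.

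*Col4a6*, a type IV chain found in basement membranes of smooth muscle among others (chrX:141165403-141474076, minus strand), was the gene called higher. It was 27.3, 28.2, 23.0 and 19.5 FPKM in WT-veh and 29.8, 51.5, 60.7 and 38.2 in αERKO-veh (log2 change 0.82, standard error 0.23, limma adjusted p = 0.02), with 29.7, 41.4, 31.2 and 50.5 for the αERKO-DES samples. All αERKO values were above every WT-veh sample, but the call was lost without WT-veh sample 3 or 4 or αERKO-veh sample 2 or 3 (adjusted p 0.053 to 0.07 in limma, log2 change 0.66 to 0.79). Within αERKO-veh, samples 2 and 3, the highest for *Col4a6*, also had the highest skeletal muscle marker levels, 5.52 and 6.00. In αERKO-DES these markers were at 1.57 to 2.00. WT-veh sample 4, with these markers at 5.17, had the lowest *Col4a6* level of its group. The part of skeletal muscle in the *Col4a6* values was not tested.

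Length moved with this comparison too, and all genes of the longest bin had a median log2 change of 0.21. After the length correction neither *Col26a1* (log2 change −2.005, adjusted p = 0.0505 in limma) nor *Col4a6* (0.58, adjusted p = 0.0701) was called, and *Col16a1* and *Col5a3* were called lower instead (corrected log2 changes −0.56 and −0.58), where 0.937% of all genes were. *Col16a1* had been 40.5 to 52.4 FPKM in WT-veh against 34.6 to 36.8 in αERKO-veh, with no overlap and a ratio of 0.74.

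**Figure D3:**
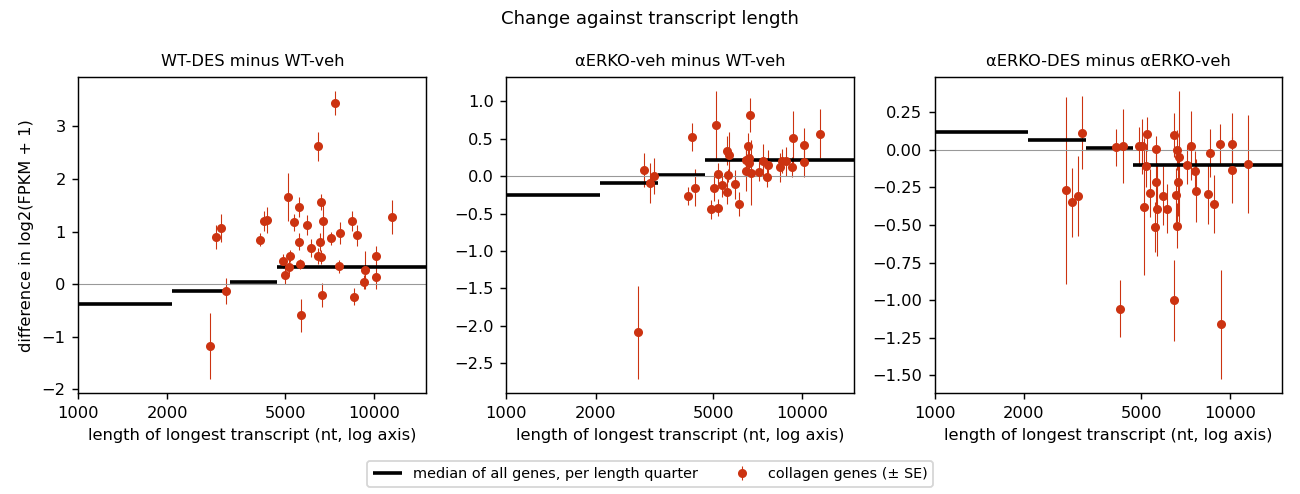
Difference in log2(FPKM + 1) of the 38 tested collagen genes against the length of their longest transcript, for 3 comparisons, with the median of all genes in each of 4 length bins as black lines. The black lines climb with length for both WT-DES (from −0.38 to 0.33) and αERKO-veh (from −0.26 to 0.21) relative to WT-veh and fall for αERKO-DES against αERKO-veh (from 0.12 to −0.10).

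In αERKO mice DES lowered 1 collagen gene and raised none by this test. Between αERKO-DES and αERKO-veh, 0 of 38 genes were called higher, where 0.0876% of all genes were, and 1 lower, where 1.41% were. *Col28a1*, a chain with a repeat interrupted at many places, was 1.56, 3.49, 1.11 and 2.34 FPKM in αERKO-veh against 0.48, 0.50, 0.43 and 0.36 with DES, with no overlap (log2 change −1.06, standard error 0.19, limma adjusted p = 0.0341). In WT it went the other way, from 0.87 to 1.31 in WT-veh to 2.75 to 4.78 in WT-DES. The call in αERKO was lost without αERKO-veh sample 2 or 4, αERKO-DES sample 1, 2 or 3, or WT-veh sample 3 (adjusted p 0.053 to 0.122 in limma, log2 change −1.08 to −0.86). *Col14a1* (log2 change −1.003, adjusted p = 0.0561 in limma) and *Col6a5* (−1.16, adjusted p = 0.0816) were not called. The count of 1 went to 6 without αERKO-veh sample 1, to 3 without WT-DES sample 1 and to 2 without αERKO-veh sample 3.

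The spread within αERKO-veh was wide for fibrillar genes. *Col1a1* was 84.4, 178, 104 and 150 FPKM and *Col3a1* 146, 271, 159 and 240 in αERKO-veh samples 1 to 4, so samples 2 and 4 were the higher pair in both. The same samples had the higher fibroblast marker levels, 5.07 and 4.82 against 4.42 and 4.46 in samples 1 and 3. The αERKO-DES samples were tighter, at 91.3 to 113 for *Col1a1* and 125.6 to 149 for *Col3a1*. Adipose markers were called lower for 5 of 8 genes and skeletal muscle markers for 7 of 11 tested in this comparison. The fibroblast list had a median log2 change of −0.35, with 1 of 7 called lower (*Dpt*, −0.61), and 1 of 6 endothelial markers was lower (*Tek*, −0.67). The part of these markers in the collagen values was not tested.

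The change with DES was called different between genotypes in 21 of the 38 genes, where 56.4% of all tested genes were called in either direction. In the test of that difference (the interaction, WT minus αERKO for the log2 change with DES, called at an adjusted limma p up to 0.05 and 1.5-fold), 21 were higher in WT, where 29.6% of all tested genes were, and 0 were lower, where 26.9% were. The 21 include *Col6a4*, *Col6a6*, *Col9a2*, *Col11a1* and *Col24a1*, which entered the test through WT-DES alone. Among the 25 genes with a mean above 5 FPKM, 13 were higher in WT, where 19.2% of all genes above that mean were, and *Col6a4* and *Col8a2* are again among the 13. The largest differences were 3.62 for *Col14a1* (standard error 0.38, limma adjusted p = 1.34e-06), 3.41 for *Col6a4*, 2.26 for *Col28a1* and 2.07 for *Col5a2*. All 21 remained called without WT-DES sample 1, and 18 of them after the length correction (28.3% of all genes), when *Col12a1*, *Col24a1* and *Col6a5* lost the call. After that correction *Col4a3* (−0.81) and *Col7a1* (−0.63) were called lower, where 24.1% of all genes were. Markers moved in this test as well, higher in WT for 6 of 7 fibroblast, all 6 endothelial, 7 of 8 leukocyte, all 8 adipose and 6 of 11 skeletal muscle genes, and lower for 4 of 8 smooth muscle, 6 of 8 epithelial and all 8 secretion genes. *Cd52* and *Acta1* of the leukocyte and skeletal muscle lists were lower and *Krt5* of the epithelial list was higher. Their part in the collagen values was not tested.

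**Figure D4:**
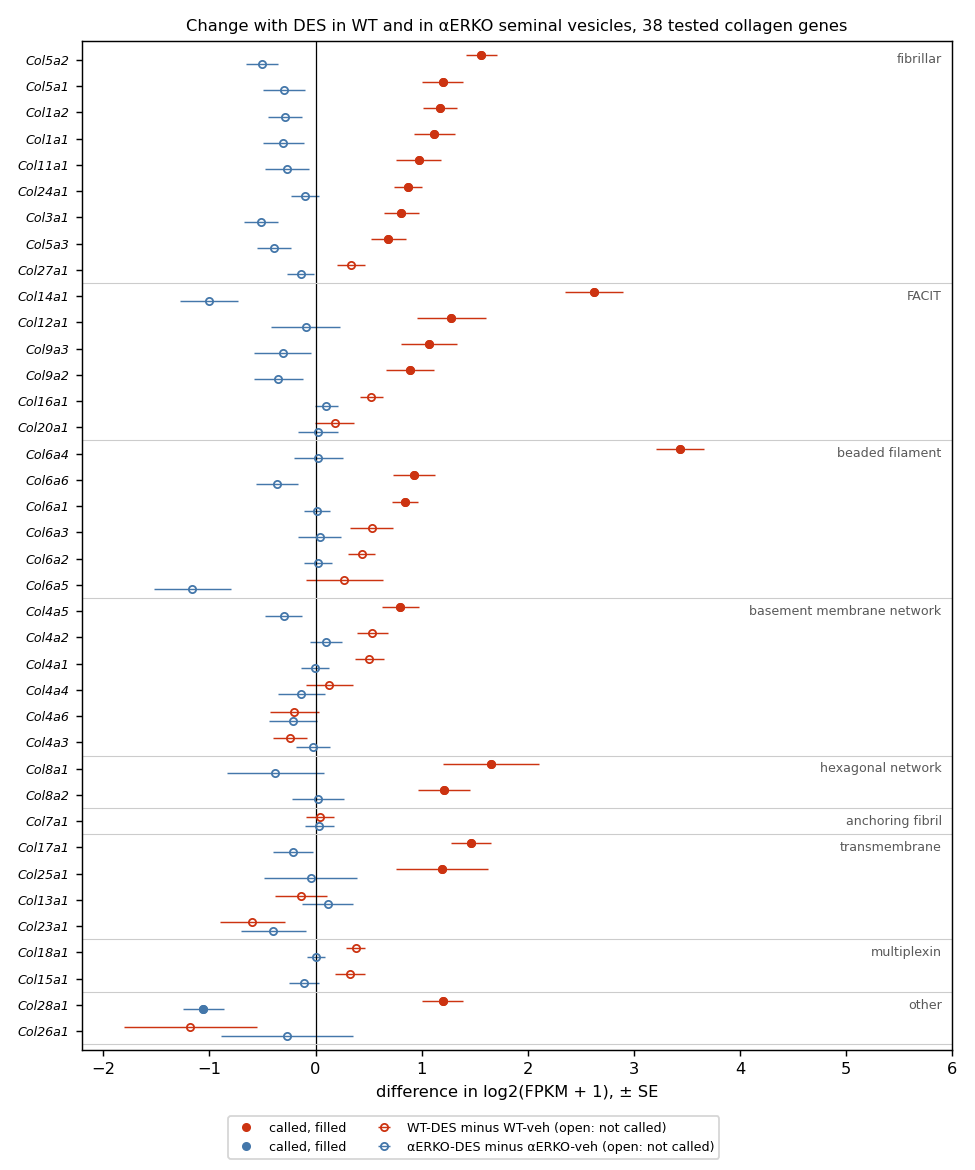
Difference in log2(FPKM + 1) with DES in WT (red) and in αERKO (blue) SV for the 38 tested collagen genes, ordered by class, with standard errors and filled points for called genes. The red points of the fibrillar genes lie from 0.34 to 1.56 and the blue ones from −0.51 to −0.10, while in type IV the red ones lie from −0.24 to 0.80 and the blue ones from −0.30 to 0.10.

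Under DES, the same genes of types I, III and V and *Col14a1*, *Col16a1*, *Col6a1* and *Col6a2* were called lower in αERKO than in WT. In αERKO-DES relative to WT-DES, 24 of 38 genes were called lower, where 29.6% of all genes were, and 1 higher, where 23.7% were. All 6 genes that entered the test through WT-DES alone are among the 24. Of the 25 genes with a mean above 5 FPKM, 15 were called lower, where 17.9% of all genes above that mean were, and the 15 hold *Col6a4* and *Col8a2* too. Cell type markers moved in the same comparison. All 7 fibroblast, 6 endothelial and 8 adipose markers and 7 of 8 leukocyte markers were called lower, with *Cd52* higher, while 4 of 8 smooth muscle, 6 of 8 epithelial (3 after the length correction) and all 8 secretion genes were called higher. One epithelial marker was lower. Their part in the collagen values was not tested. The largest log2 differences were those of *Col14a1* (64.1 ± 20.2 against 4.46 ± 1.06, SD, n = 4), *Col6a4* (18.5 ± 8.50 and 0.95 ± 0.0942) and *Col5a2* (59.5 ± 2.63 and 16.2 ± 2.01). *Col4a6* was the gene called higher, at 21.5 ± 5.87 and 38.2 ± 9.72 (log2 change 0.80, standard error 0.23, adjusted p = 0.00533 in limma), a change that went to 0.43 and lost the call when samples were rescaled without the 20 most abundant genes. After the length correction 18 genes were called lower (29.0% of all genes) and 2 higher (22.8%), *Col4a6* and *Col4a3*. *Col25a1* fell under the limit of 1 FPKM without WT-DES sample 1. *Col12a1* lost its call here without that sample (log2 change −0.36, adjusted p = 0.087 in limma) as well as without WT-DES sample 4 or any single αERKO-DES sample (adjusted p 0.054 to 0.072 in limma, log2 change −0.84 to −0.78), *Col4a5* without WT-DES sample 3 (−0.52), and *Col6a5* without WT-DES sample 2, 3 or 4 or αERKO-DES sample 2, 3 or 4 (adjusted p 0.055 to 0.109 in limma, log2 change −0.92 to −0.69).

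Set against WT-veh, αERKO-DES was lower in 4 genes. These were *Col26a1*, *Col14a1*, *Col5a3* and *Col3a1*, where 1.97% of all genes were called lower, and 0 were higher, where 1.21% were. *Col14a1* was 5.81, 4.43, 3.23 and 4.35 FPKM in αERKO-DES, below all WT-veh samples (log2 change −0.93, standard error 0.27, limma adjusted p = 0.049). *Col3a1* was 147, 130, 125.6 and 149, also without overlap (log2 change −0.72, standard error 0.16, limma adjusted p = 0.0187). Markers called lower in this comparison were 3 of 7 fibroblast (*Thy1*, *Fbln1* and *Dpt*), 6 of 8 adipose and 1 of 8 leukocyte genes, with *Lum* and *Dcn* of the 7 proteoglycans lower too, and their part in the collagen values was not tested. Leaving out single samples left 0 to 5 genes called, with 0 without αERKO-DES sample 3, 1 without WT-veh sample 1 or 4, and 2 without WT-veh sample 2 or 3 or αERKO-DES sample 2 or 4. The comparisons of αERKO-DES with the WT groups share groups with those above, so their values are not independent of them.

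Chains that assemble with each other, or whose genes lie head to head, did not all move together. A ratio of FPKM within a sample does not depend on how that sample was scaled. For 8 pairs, 4 comparisons each were tested by exact two-sided permutation over the samples, for which the smallest p is 0.0286 and the smallest value reached after adjustment over the 32 tests was 0.0703, so no ratio passed 0.05 after adjustment, and 13 had a raw exact permutation p of 0.0286. The pairs were chosen after the values of single genes were known.

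*Col1a1* and *Col1a2*, which form type I collagen, had ratios of 0.885 ± 0.0543 in WT-veh samples, 0.854 ± 0.0717 for WT-DES, 0.894 ± 0.0821 for αERKO-veh and 0.883 ± 0.0659 for αERKO-DES (SD, n = 4), while both levels were over 2-fold higher after DES in WT. *Col4a1* and *Col4a2*, which form the common type IV network, had ratios of 1.59 ± 0.0409, 1.56 ± 0.071, 1.55 ± 0.0476 and 1.44 ± 0.056 in the same order. Their annotated starts overlap by 22 bases on chromosome 8, so that reads at the very start cannot be assigned without strand.

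*Col4a5* and *Col4a6* lie head to head on the X chromosome, with 1308 bases between their annotated starts, and their transcripts are of near equal length, 6536 and 6648 nt. Their ratio was 0.925, 0.937, 0.914 and 1.00 in WT-veh and 1.77, 1.93, 1.99 and 2.07 in WT-DES. The αERKO-veh samples had 0.836, 0.724, 0.466 and 0.872, and the αERKO-DES samples 0.746, 0.597, 0.740 and 0.576. WT-DES was above all other samples and the αERKO groups below WT-veh. The log2 difference was 1.04 in WT-DES relative to WT-veh, −0.42 for αERKO-veh against WT-veh and −1.55 for αERKO-DES against WT-DES, each with an exact permutation p of 0.0286 and an adjusted p of 0.0703, and −0.09 for αERKO-DES against αERKO-veh (exact permutation p = 0.771).

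*Col4a3* and *Col4a4*, which form a further type IV network together with *Col4a5*, are a second head-to-head pair. The 71 bases between their annotated starts, from which both genes are read outward, are shown here on the minus strand, that is in the direction of *Col4a4* (RefSeq, GRCm38.p6, chr1:82586850-82586920), and hold no annotated exon:
Col4a4 to Col4a3: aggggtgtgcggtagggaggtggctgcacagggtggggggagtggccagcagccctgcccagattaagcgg
Both genes were low, at 1.45 to 5.21 FPKM over all samples, and the ratio of *Col4a3* to *Col4a4* was 1.02 to 1.14 in WT-veh against 0.973, 0.708, 0.742 and 0.714 in WT-DES. It was 0.795 to 1.04 for αERKO-veh, overlapping both WT groups, and 0.870 to 1.15 for αERKO-DES. WT-DES sample 1 had the lowest level of both genes, 1.45 and 1.49 FPKM, against 2.84 to 2.92 and 3.83 to 4.09 in the other 3.

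The *Col5a1* to *Col5a2* and the *Col6a1* to *Col6a2* ratios did not overlap between WT-veh and WT-DES. The ratio of *Col5a1* to *Col5a2* was 0.929 ± 0.0713 in WT-veh samples, 0.720 ± 0.0604 for WT-DES, 0.849 ± 0.0776 for αERKO-veh and 0.985 ± 0.0408 for αERKO-DES (SD, n = 4). The ratio of *Col6a1* to *Col6a2* was 0.912 ± 0.0527, 1.21 ± 0.0382, 1.04 ± 0.0538 and 1.03 ± 0.0604 in the same order, and all 4 WT-DES samples were above all other samples. For *Col6a3*, whose longest transcript has 10106 nt against 4100 nt for *Col6a1*, the ratio to *Col6a1* was 0.243 ± 0.0322, 0.197 ± 0.0226, 0.335 ± 0.0526 and 0.342 ± 0.0620 in that order. Relative to WT-veh its log2 difference was −0.30 for WT-DES and 0.46 for αERKO-veh (exact permutation p = 0.0571 and adjusted 0.102 for each), and between the DES groups it was 0.78, higher for αERKO (exact permutation p = 0.0286, adjusted 0.0703). The ratio of *Col8a1* to *Col8a2*, both low in WT-veh, was 0.308, 0.276, 0.241 and 0.308 in WT-veh and 1.06, 0.310, 0.333 and 0.718 in WT-DES, so that the lowest WT-DES sample lay just above the highest WT-veh sample. It was 0.740 ± 0.310 for αERKO-veh and 0.481 ± 0.134 for αERKO-DES. The log2 difference from WT-veh was 0.91 for WT-DES and 1.31 for αERKO-veh, each with an exact permutation p of 0.0286 (adjusted 0.0703).

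**Figure D5:**
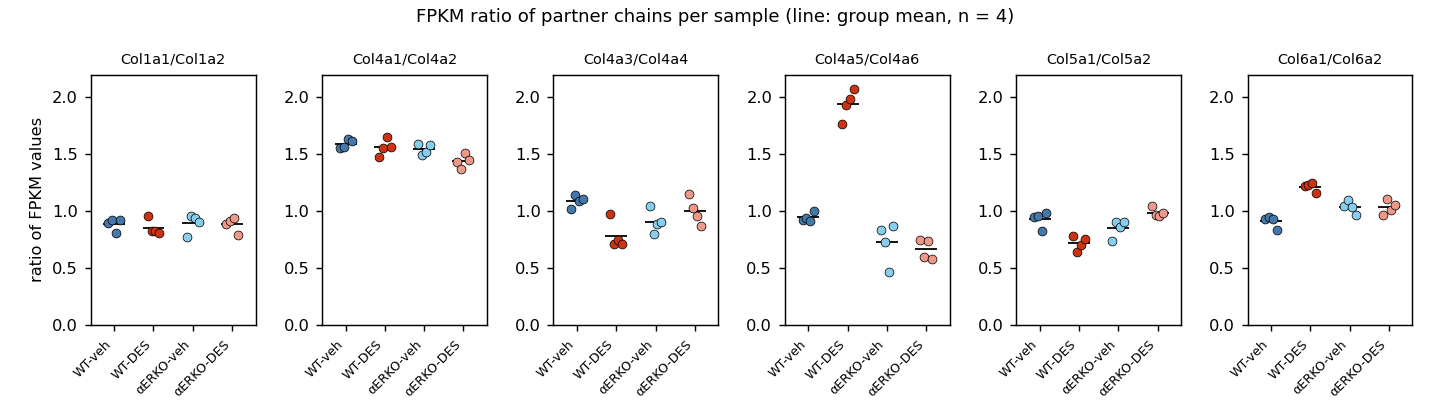
Ratio of the FPKM values of 2 partner chains in each of the 16 samples for 6 pairs, with the mean of each group as a line. *Col1a1*/*Col1a2* lies between 0.775 and 0.961 in all samples, and *Col4a5*/*Col4a6* is 1.77 to 2.07 in WT-DES and at most 1.00 in every other sample.

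Genes that act on collagen after translation were described from lists of enzymes, chaperones and partners. Their counts for WT-DES against WT-veh stand beside 28.9% of all tested genes called higher and 23.9% lower. Of the 5 cross-linking enzymes 4 were called higher with DES in WT and 0 lower, led by *Lox*, the lysyl oxidase that starts cross-links between chains (8.12 to 54.6 FPKM, log2 change 2.56), and *Loxl2* (log2 change 1.13). Of 7 tested procollagen processing genes 5 were higher and 0 lower, with *Pcolce2*, an enhancer of C-propeptide removal (log2 change 1.99), and *Adamts2*, the N-propeptidase (1.08), at the top. Of the 7 fibril-associated proteoglycans 4 were higher and 0 lower, *Lum* (31.0 to 202 FPKM) and *Ogn* with the largest rises.

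Collagen receptors and the uptake gene group had 7 of 9 tested genes higher and 0 lower, with *Itga2*, the α2 integrin chain (log2 change 2.42), and *Ddr2*, a receptor kinase for fibrillar collagen (2.24). After the length correction 5 of the 9 remained called, without *Itga1* (0.93 before and 0.41 after) and *Itga10* (0.49 and 0.28). Genes of modification and of folding were split. Of 14 modification genes 5 were higher, a share near that of all genes, with *Leprel1* (1.52) and *Plod2* (1.40), hydroxylases of proline and lysine, on top, and 1 lower, *P4hb*, the β subunit of prolyl 4-hydroxylase and a general disulphide isomerase (816 to 229 FPKM, log2 change −1.83). Of 6 folding and export genes 1 was higher, *Fkbp10* (0.68), and 3 were lower, with *Ppib* (−1.55) and *Hsp90b1* (−1.46), chaperones that serve secreted proteins in general. Within αERKO, with DES against vehicle, 1 gene of these 6 lists, *Dcn*, was called, lower, where 1.41% of all tested genes were. After the length correction *Dcn* was not called and *Lum* and *Kera* were, both lower. In αERKO-veh relative to WT-veh 1 gene, *Ddr2*, was called higher, where 4.50% of all tested genes were, and it lost the call after the length correction (log2 change 0.65 and 0.34).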

How the data were processed

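Seminal vesicle RNA of 16 samples was sequenced, and the authors deposited 1 table of FPKM values per gene and sample, made with TopHat2 2.0.4 and Cufflinks 2.0.2 on mm10 per the submitters' processing notes. The gene annotation of that table is not given in the sources used here, and FPKM holds no counts, so no interval for depth was computed. Groups came from the sample labels. The members, classes and gene lists were chosen with earlier results of these data known.

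Values were taken as log2(FPKM + 1), so that changes of low genes are understated, and fitted with limma 3.58.1 in R 4.3.3 as 1 model of 4 group means with a variance trend, over genes with a mean FPKM above 1 in 1 group or more. P-values were adjusted by Benjamini-Hochberg over all tested genes. Limma p-values rest on the spread between samples within groups, with 1 estimate per gene that all 4 groups share. A sample outside the 2 groups compared can thus change a call. Length correction subtracted a lowess curve (span 0.3) on log2 length of the longest GENCODE M21 transcript, with 22557 genes matched by symbol and 1017 by synonym. Chain ratios were tested by exact two-sided permutation. Fits and length correction were tested on simulated data. Genes named with values were members at 10 FPKM or more in a group, the largest called changes, members called in αERKO-veh against WT-veh or within αERKO, and partner chains; some low or uncalled members were added after their values were seen. Genes with similar profiles were not listed, since the samples form separate groups. Alternatives covered pseudocount, minimum FPKM, scaling, model, sample weights, replicate block and single samples left out. Coding sequence came from GENCODE M21 and the intergenic sequence from RefSeq; amino acid sequences were not used here.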

Additional observations from a re-analysis of the deposited data

Results flagged for a closer look

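The change with DES differed between WT and αERKO, by the limma interaction term, in 21 of the 38 tested collagen genes, where 56.4% of all tested genes were called in either direction and 29.6% in the direction of these 21. Of those listed here *Col6a4*, *Col6a6*, *Col9a2*, *Col11a1* and *Col24a1* entered the test through WT-DES alone, and *Col12a1*, *Col24a1* and *Col6a5* lost the call after the length correction. The difference in log2 change, WT minus αERKO, was 1.42 for *Col1a1*, 1.46 for *Col1a2*, 1.32 for *Col3a1*, 1.496 for *Col5a1*, 2.07 for *Col5a2*, 1.08 for *Col5a3*, 1.24 for *Col11a1* and 0.97 for *Col24a1* among the fibrillar genes. It was 3.62 for *Col14a1*, 1.37 for *Col12a1*, 1.24 for *Col9a2* and 1.38 for *Col9a3* among the FACIT genes, and 0.82 for *Col6a1*, 3.41 for *Col6a4*, 1.43 for *Col6a5* and 1.29 for *Col6a6* among the type VI genes. The others were *Col4a5* (1.102), *Col8a1* (2.03), *Col8a2* (1.19), *Col17a1* (1.68) and *Col28a1* (2.26).

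One sample lay far from the other 3 of its group in 13 of the 131 gene and group combinations tested with Dixon's critical value for 4 samples, where chance alone is known to flag about 1 in 20. In WT-DES sample 1 these were *Col8a1* (21.8 FPKM), *Col8a2* (20.5), *Col25a1* (8.44), *Col4a3* (1.45) and *Col4a4* (1.49), and in WT-DES sample 2 *Col6a3* (29.15). In WT-veh they were *Col1a1* (103.1) and *Col6a2* (106.6) in sample 3 and *Col20a1* (2.93) in sample 2. In the αERKO groups they were *Col16a1* in αERKO-veh sample 4 (36.8), *Col4a2* (74.1) and *Col5a2* (19.2) in αERKO-DES sample 4, and *Col5a3* in αERKO-DES sample 1 (7.62).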

How the results depend on the processing

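Counts of called collagen genes held within 1.5 times under the alternatives for WT-DES against WT-veh (21, with 14 at a minimum of 5 FPKM and 31 after rescaling without the 20 most abundant genes), αERKO-DES against WT-DES (25, 17 to 33) and the interaction (21, 14 to 30), and leaving out single samples gave 21 to 24, 23 to 26 and 21 to 22. That rescaling moved the median log2 change of all genes to 0.38, −0.34 and 0.51. Over all genes it raised the calls higher in WT-DES against WT-veh from 4613 to 6953 and cut those lower from 3815 to 1831. In αERKO-DES against WT-DES it raised lower calls from 4740 to 6589, and in the interaction higher calls from 4729 to 7288. At a minimum of 5 FPKM the same calls numbered 2931, 2929 and 3073. Quantile normalization called 2 collagen genes lower in WT-DES against WT-veh and 2 in the interaction. The small counts moved. For αERKO-veh against WT-veh (2), quantile normalization gave 1, sample weights 6 and leaving out single samples 0 to 4. For αERKO-DES against αERKO-veh (1), a pseudocount of 0.1 and sample weights each gave 3, while a minimum of 5 FPKM, quantile normalization and a model of the 2 groups alone each gave 0, and leaving out single samples 0 to 6. For αERKO-DES against WT-veh (4), quantile normalization gave 1, the model of the 2 groups 7 and leaving out single samples 0 to 5. The cause was not tested. Samples with the same replicate number did not deviate together (correlations −0.21 to 0.28), and with the number as a block the counts were 21, 2, 1, 25, 2 (αERKO-DES against WT-veh) and 21 (interaction). Of 1182 values of single genes with a sample left out, 49 lost the call, and of 838 under the other alternatives 64 did, and 0 reversed. Genes that no longer passed the minimum FPKM under an alternative are not in these numbers, so calls lost in that way come on top. Depth is unknown, so what it limits cannot be stated.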
